A study of Drosophila melanogaster with 57 samples.

Results

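The mitochondrial ribosome is the particle that translates the few proteins encoded by mitochondrial DNA, most of them parts of the respiratory chain. Its 2 rRNAs are transcribed in the mitochondrion, while its proteins are encoded in the nucleus, made in the cytosol and imported. The large subunit carries the peptidyl transferase centre and the exit tunnel for the new chain, and the small subunit reads the mRNA. Some of these proteins have bacterial counterparts and others are found only in mitochondria.

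All genes whose FlyBase symbol begins with mRpL (large subunit) or mRpS (small subunit) followed by a digit were taken, by symbol alone. The reference annotation holds 73 such symbols, of which 71 had a row among the 17559 genes of the count tables, and mRpS34 and mRpS5 did not match a row. Of the 71 genes, 47 carried mRpL and 24 mRpS symbols. On the dm6 build 12 lie on 2L, 12 on 2R, 15 on 3L, 21 on 3R and 11 on X. The genes tko (the mRpS12 gene) and bonsai (the mRpS15 gene) carry other names and are given beside the members. One member, mRpL53, had no count in any of the 57 libraries, and all of its exon bases are shared with CG33155 on the same strand, so reads there could not be given to 1 gene. The other 70 members passed the filter on low counts in every fit, and counts of members below are out of these 70.

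Poly(A) RNA of adult Drosophila melanogaster was sequenced from 19 groups of 3 libraries, and read counts per gene were deposited for each. The flies were 5 days old, kept at 23 °C with 20 flies in a vial and the sexes apart. The control was stock 58492, which carries y1, w1118, a DNAlig4 mutation and the transgene M{Act5C-Cas9.P.RFP-}ZH-2A, a Cas9 source. In embryos of that stock CBS (cystathionine β-synthase), CSE (cystathionine γ-lyase) or MST (3-mercaptopyruvate sulphurtransferase), enzymes that produce hydrogen sulphide, was replaced by an mCherry reporter, and the adults were outcrossed to yw flies. Whether the deletion strains kept the Cas9 transgene is not given in the sources used here. CBS-/- is represented by lines 5 and 8, and CSE-/- and MST-/- by 1 line each. The labels number the CSE-/- line 8 and the study's methods number it 1. The CBS/CSE(1) and CBS/CSE(2) strains lack both genes and came from crosses of the CSE-/- line with CBS-/-(5) and CBS-/-(8), respectively. For the control and these 6 strains, RNA came from whole flies, females and males apart. Thoraxes were also used for the control and CBS-/-(5), and CBS/CSE(2) backcrossed on yw gave whole males only. Nothing states that the 3 libraries of a group came from separate cultures, so p-values measure the spread between these libraries, which may be technical.

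A whole-female library held 19612605 to 28768678 counts assigned to genes, a whole-male library 9705034 to 18623886 and a thorax library 10645727 to 31616200. The deleted genes were lower than in the control in the strains that lack them, the backcrossed one aside. Cbs stood at 198.9–204.3 CPM (counts of a gene scaled to a fixed library total) in control females and at 0.69–1.36 CPM in the females of the 4 strains that lack it. Cth (the CSE gene) was less low in CSE-/- males, at 15.43–26.48 CPM against 58.14–71.4 in control males, than in the males of CBS/CSE(1) and CBS/CSE(2), at 3.14–3.95 CPM. The libraries labelled backcrossed CBS/CSE(2) went against their label, with Cbs at 33.31 and 34.38 CPM and Cth at 32.69 and 45.39 CPM in libraries 1 and 2, and the third held only 7321 counts. Whole-male libraries differed in transcripts that males should lack. The summed CPM of 19 ovary and eggshell markers was 633–1492 in control males, 81–149 in MST-/-, CBS/CSE(1) and CBS/CSE(2) males, and reached 5051 in CBS-/-(5), 4731 in CBS-/-(8) and 2542 in CSE-/- males. In 1 CBS/CSE(1) female library testis markers summed to 39.5 CPM and accessory gland markers to 135.2 CPM, against at most 0.89 CPM of each in the other 2. Among thorax libraries, the first control female library had 37.25% of its counts on rRNA genes.

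In control females the members were expressed within a narrow band. Per kilobase of exon their mean level had a median of 41.13 CPM per kb over the 70 genes and ran from 11.3 to 110.3, a 9.76-fold range. The highest were mRpL30 (FBgn0029718, X:4647871-4648646, plus strand) at 110.3 ± 5.63 (SD, n = 3), mRpL12 (FBgn0011787, 3L:8956791-8957584, plus strand) at 95.11 ± 5.03 and mRpL10 (FBgn0031231, 2L:203779-204782, plus strand) at 85.46 ± 9.64 CPM per kb. The proteins L12 and L10 form the stalk of the large subunit, which recruits translation factors, and L10 is the piece that holds the L12 copies. The lowest were mRpS24 (FBgn0039159, 3R:24162829-24163545, minus strand) at 11.3 ± 0.862, mRpL48 at 19.1 ± 0.433 and mRpL21 at 23.8 ± 2.47 CPM per kb. The levels of mRpL12 and mRpL10 overlapped within 1 SD, and mRpS24 lay below every other member. Of the mRpS24 exon bases 55.33% are shared with TBC1d7 on the opposite strand, of mRpL48 20.76% with frtz, and the strand setting of the counting is not given, so these 2 levels are uncertain.

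In control males the levels were lower and the order differed. The median was 19.45 CPM per kb with a range from 3.549 to 55.31, a 15.6-fold range. The highest was mRpL28 (FBgn0031660, 2L:4973976-4975316, plus strand) at 55.31 ± 2.82, against 48.99 ± 2.49 CPM per kb in females, followed by mRpL30 at 45.15 ± 7.41 and mRpS7 at 44.76 ± 3.54. The lowest were mRpS24 at 3.549 ± 0.238, mRpL21 at 7.323 ± 0.868 and mRpL11, a protein of the stalk base, at 10.15 ± 1.21 CPM per kb. Of the 3 highest, mRpL28 alone had no higher level in females. In control thoraxes the medians were 17.435 CPM per kb in females and 21.385 in males. The female value takes in the first library, with 37.25% of its counts on rRNA genes. Its members summed to 246 CPM, against 1254 and 1893 in libraries 2 and 3, so these medians do not rank the sexes. These levels are scaled by each library's total.

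**Figure D1:**
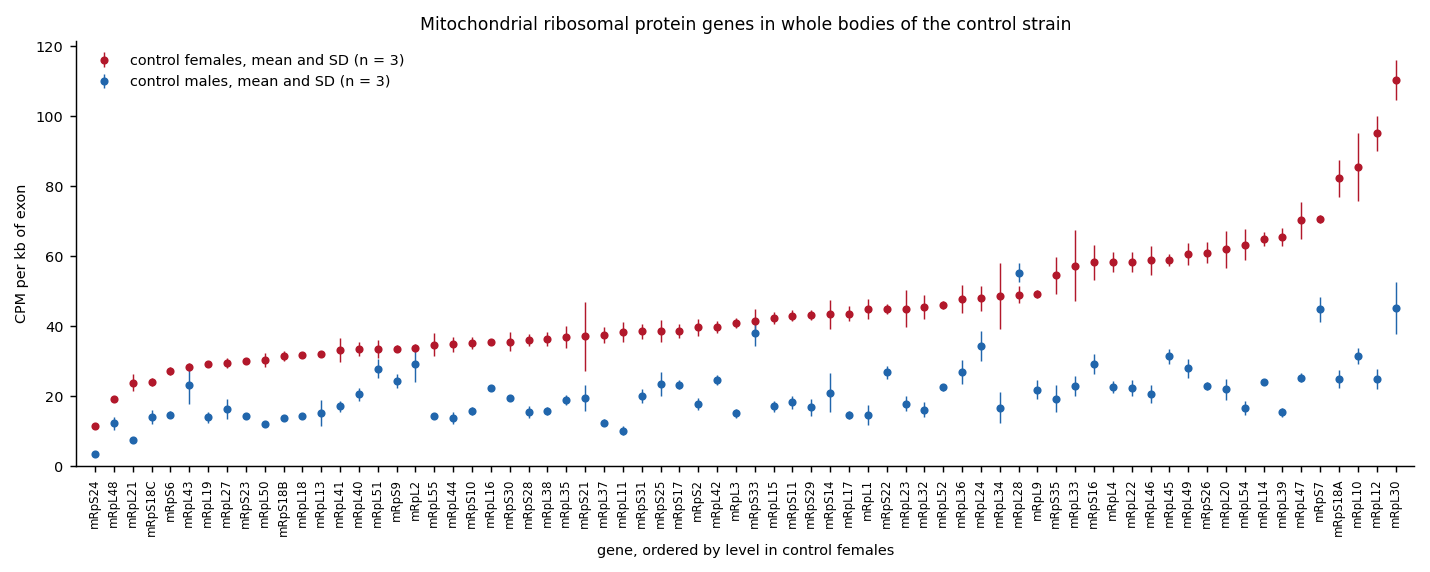
Mean level of each of the 70 expressed members in control whole females and whole males (CPM per kb of exon, points are means and bars SD of 3 libraries, scaled by library total), ordered by the level in females. The female medians and range (41.13, from 11.3 to 110.3 CPM per kb) lie above those of males (19.45, from 3.549 to 55.31).

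The first comparison was of the sexes in the control. In whole bodies 65 of 70 members were higher in females than in males and none was lower. Over all genes tested, 90.2% differed and 36.8% were higher in females. The median difference of the members was 1.28 on the log2 scale while that of all genes was -0.86, and for 68 members the female and male libraries did not overlap, against 37.6% of all genes in that direction. Calls here and below are from edgeR's quasi-likelihood test at a Benjamini-Hochberg adjusted p under 0.05 over all genes tested in the comparison. CPM values beside a fold change carry edgeR's TMM scaling within the fit, so a library's value can differ slightly from one comparison to the next.

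The greatest difference between the sexes was in mRpL39 (FBgn0036462, 3L:14997981-14999666, minus strand), a mitochondria-specific protein of the large subunit. It stood at 79.14, 72.80 and 79.81 CPM in the 3 control female libraries and at 15.52, 16.13 and 18.20 CPM in the male ones, a log2 difference of 2.22 (SE 0.20, adjusted p = 6.08e-12). The stalk gene mRpL12 had 71.00, 75.65 and 71.32 CPM in females and 16.09, 19.48 and 17.16 in males (2.05 on the log2 scale, SE 0.20, adjusted p = 4.03e-11). The gene mRpL54, which encodes another mitochondria-specific protein, had 45.26, 46.44 and 42.30 CPM in females and 10.08, 10.06 and 12.28 in males (2.05, SE 0.20, adjusted p = 4.71e-11). For each of the 3 genes the lowest female library was far above the highest male one. At the other end mRpL28 had a log2 difference of -0.06 (SE 0.14, adjusted p = 0.704), and mRpL2 (0.32), mRpL43 (0.41), mRpL51 (0.39) and mRpS33 (0.24) did not pass the test either.

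The difference spanned the particle and its partners. It was called for 42 of 46 mRpL and 23 of 24 mRpS genes, and for 11 of 11 members on the X chromosome and 54 of 59 on autosomes. The gene tko was higher in females by 2.02 on the log2 scale and bonsai by 1.44. Of the other genes for mitochondrial gene expression, 12 of 13 for expression of the mitochondrial genome, 11 of 14 mitochondrial aminoacyl-tRNA synthetases and 7 of 9 mitochondrial translation factors were higher in females. The respiratory chain subunits encoded in the nucleus went the other way, with 2 higher and 65 lower of 81. Of 15 transcripts of the mitochondrial genome 3 were lower. These are to be read against all genes, of which 90.2% were called and 36.8% were higher, with a median of -0.86 on the log2 scale. The regulator srl, the fly PGC-1, was among the most raised, at 438.3, 519.8 and 478.4 CPM in females against 21.86, 29.26 and 41.86 in males. Whole females carry ovaries and whole males do not, and in bulk RNA fewer cells of a type and less RNA per cell cannot be told apart. The 7 germline markers summed to 5582–7220 CPM in control females and 209–491 in control males, and the 9 flight muscle markers to 792–1298 and 4620–5497 CPM. Their part in the result was not tested. In thoraxes, which should hold no gonad and where the germline markers summed to 58–99 CPM in control females, 0 of 70 members were called between control females and males (all genes 2.29%), 0 had an unadjusted p under 0.05 and DESeq2 also called 0. The thorax median was 0.20 on the log2 scale. Member sums under TMM scaling were uneven there, at 999, 958 and 2549 CPM in control females and 1221, 1052 and 1879 in control males. With that spread the lack of calls does not show that the sexes were alike in thorax.

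**Figure D2:**
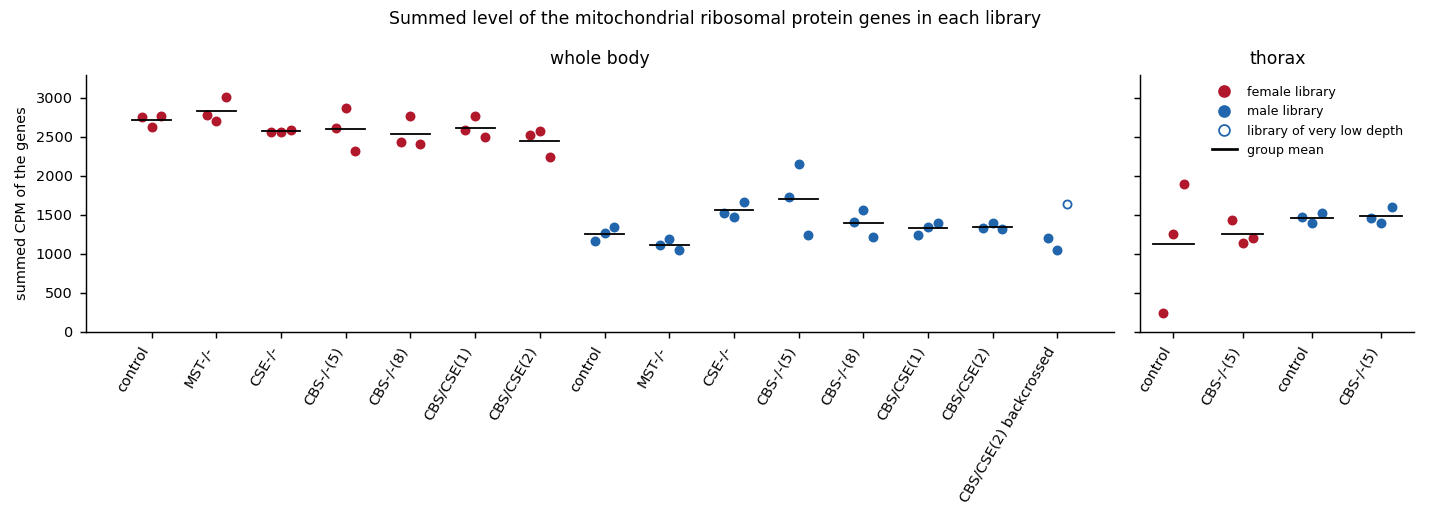
Summed CPM of the 70 expressed members in every library, whole bodies on the left and thoraxes on the right, scaled by library total. Control females sit at 2621–2764 CPM and control males at 1166–1344, and the CBS-/-(5) male libraries spread from 1249 to 2147. The first control female thorax, with 37.25% of its counts on rRNA genes, stands at 246, and the third backcrossed library holds 7321 counts in all.

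In females each deletion strain was compared with the control. In both sexes the strains also differ from the control by the outcross to yw and the mCherry reporter, and CSE-/- and MST-/- are 1 line each. Loss of an enzyme thus cannot be told apart from the background or the line. Of the 70 members, 17 were called in CBS/CSE(1), 16 in CBS/CSE(2), 5 in CBS-/-(8), 1 in CBS-/-(5) and 0 in both CSE-/- and MST-/-, to be read against the share of all genes called in each, which also differed between strains. In MST-/- females no member was called (all genes 0.891%), with 2 at an unadjusted p under 0.05. In CSE-/- females no member was called either (all genes 2.73%), although 63 of 70 values were below 0, their median was -0.14 on the log2 scale against -0.003 over all genes, and 11 had an unadjusted p under 0.05. DESeq2 called 0 members in both strains. The comparisons of strains with the control of a sex share the same 3 control libraries.

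In CBS-/-(5) females 1 member was lower and none higher, when 15.2% of all genes were called and 3.89% were lower. It was mRpL39, at 62.15, 62.24 and 50.74 CPM against 79.58, 69.37 and 78.82 in the control (-0.38 on the log2 scale, SE 0.10, adjusted p = 0.0167), so that all deletion libraries lay below all control ones. In CBS-/-(8) females 4 members were lower and 1 higher, when 24.6% of all genes were called, 8.00% lower and 16.6% higher. Again mRpL39 was lower, at 53.29, 65.71 and 55.41 CPM (-0.39, SE 0.10, adjusted p = 0.00983), with mRpL10 (-0.48), mRpL4 (-0.36) and mRpL15 (-0.34), all of the large subunit. The one raised was mRpS10, of the small subunit, at 35.47, 45.73 and 39.19 CPM against 29.05, 25.29 and 29.98 (0.51, SE 0.14, adjusted p = 0.0108). Which single library entered decided these few calls: without CBS-/-(8) library 1 or 3 none was lower and 1 was higher, and without library 2 of CBS-/-(8) or of the control 11 and 8 were lower and none higher. Without control library 1 or 3, 1 was lower and 1 higher.

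In CBS/CSE(1) females 15 members were lower and 2 higher, that is 21.4% lower and 2.86% higher, when 30.8% of all genes were called, 14.2% of them lower and 16.6% higher as shares of all tested. Their median was -0.09 on the log2 scale against 0.03 over all genes. The largest decrease was in mRpS24, at 4.688, 3.176 and 4.681 CPM against 6.793, 6.194 and 7.745 in the control (-0.72, SE 0.23, adjusted p = 0.0264), a gene with few counts that shares most exon bases with TBC1d7 on the other strand. The stalk gene mRpL10 had 52.93, 52.74 and 48.38 CPM against 85.08, 65.17 and 85.99 (-0.62, SE 0.13, adjusted p = 0.00318). The gene mRpS18A, whose human counterpart sits in the large subunit, had 33.78, 33.61 and 31.19 CPM against 52.11, 43.19 and 50.74 (-0.57, SE 0.14, adjusted p = 0.00583). For each of the 3 genes no deletion library reached the lowest control library, and control library 2 was the lowest of the controls.

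The 2 raised members of CBS/CSE(1) females were mRpL43, a mitochondria-specific protein of the large subunit, and mRpS9, of the small subunit. The gene mRpL43 had 30.06, 39.89 and 31.52 CPM against 23.85, 21.21 and 22.50 (0.59, SE 0.15, adjusted p = 0.00881), and mRpS9 had 52.23, 58.49 and 51.07 CPM against 45.37, 42.68 and 43.99 (0.29, SE 0.08, adjusted p = 0.0163). Groups did not overlap for either gene, and 25.14% of the mRpS9 exon bases are shared with ArgRS-m on the opposite strand. The count of calls leaned on single libraries. It was 4 lower and 2 higher without control library 1, 16 and 1 without control library 2, 4 and 1 without control library 3, 10 and 3 without CBS/CSE(1) library 1, and 6 and 2 without library 3. Without library 2 of CBS/CSE(1), the one that held testis and accessory gland transcripts, 7 were lower and none higher, with mRpL43 at 0.45 (adjusted p = 0.0509) and mRpS9 at 0.23 (adjusted p = 0.0782).

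In CBS/CSE(2) females 15 members were lower and 1 higher, again 21.4% and 1.43% of the 70, when 66.3% of all genes were called, 31.8% lower and 34.4% higher. The share of members called lower was thus below that of all genes. Among the members, mRpS18A stood at 29.72, 37.32 and 30.49 CPM (-0.58, SE 0.14, adjusted p = 0.00174), mRpL10 at 51.64, 54.01 and 53.15 (-0.57, SE 0.13, adjusted p = 0.00184) and mRpL39 at 53.99, 60.56 and 51.01 (-0.46, SE 0.10, adjusted p = 0.00117). All 3 lay below every control library. The gene mRpL4, a protein of the exit tunnel, had 46.70, 42.95 and 36.74 CPM against 59.89, 55.15 and 65.54 (-0.51, SE 0.12, adjusted p = 0.00175), and mRpL43 was again higher, at 34.21, 27.27 and 29.37 CPM (0.43, SE 0.15, adjusted p = 0.0200). Leaving out a library gave 11 lower and 1 higher (control 1), 19 and 0 (control 2), 8 and 0 (control 3), 13 and 0 (deletion library 1), 16 and 4 (deletion library 2) and 9 and 1 (deletion library 3).

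Across the 6 strains mRpL39 was called lower in 4 (CBS-/-(5), CBS-/-(8) and both combined deletions; -0.44 in CBS/CSE(1)) and mRpL10 in 3. Values below 0 in all 6 strains were found for 29 members and above 0 in all 6 for 4 members. By subunit, 12 of 46 mRpL and 3 of 24 mRpS genes were called lower in CBS/CSE(1), and 13 of 46 and 2 of 24 in CBS/CSE(2). Most members are mRpL genes, and a difference between the subunits was not tested. In the same females the proteins of the cytosolic ribosome went the other way, with 40 higher and 0 lower of 83 in CBS/CSE(1) and 43 higher and 1 lower in CBS/CSE(2). Of the nuclear respiratory chain subunits 7 were higher and 2 lower of 64 in CBS/CSE(1), and 55 higher and none lower in CBS/CSE(2). Of the mitochondrial aminoacyl-tRNA synthetases 7 of 14 were lower in CBS/CSE(2), and in CBS-/-(5) females AlaRS-m had 54.95, 68.07 and 42.58 CPM against 91.82, 94.14 and 92.1 (-0.75, adjusted p = 0.000694). The fly NRF-1 gene ewg was also lower there, at 71.17, 62.28 and 71.51 CPM against 115.0, 111.4 and 106.6 (-0.70, adjusted p = 0.000162).

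Tissue markers moved in these females. Germline markers summed to 5582–7220 CPM in the control, 4049–4762 in CBS/CSE(1) and 2283–4585 in CBS/CSE(2), and flight muscle markers to 792–1298, 1556–2160 and 1842–4969 CPM, so the germline sums of either strain did not overlap the control. Their part in the result was not tested. With TMM factors taken only from genes whose control level in thorax matched or exceeded that in the whole body, the median of all genes itself fell by 0.53 in CBS/CSE(1), by 0.64 in CBS-/-(8) and by 0.98 in CBS/CSE(2) on the log2 scale. Under that scaling 30, 43 and 68 members were lower and none higher, and the raised values of mRpS10 in CBS-/-(8), of mRpS9 in CBS/CSE(1) and of mRpL43 in CBS/CSE(2) turned to -0.14, -0.26 and -0.59. The member medians under it were -0.65, -0.73 and -1.14. The shares of all genes called under it are not given, so these counts cannot be read as particular to the members.

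**Figure D3:**
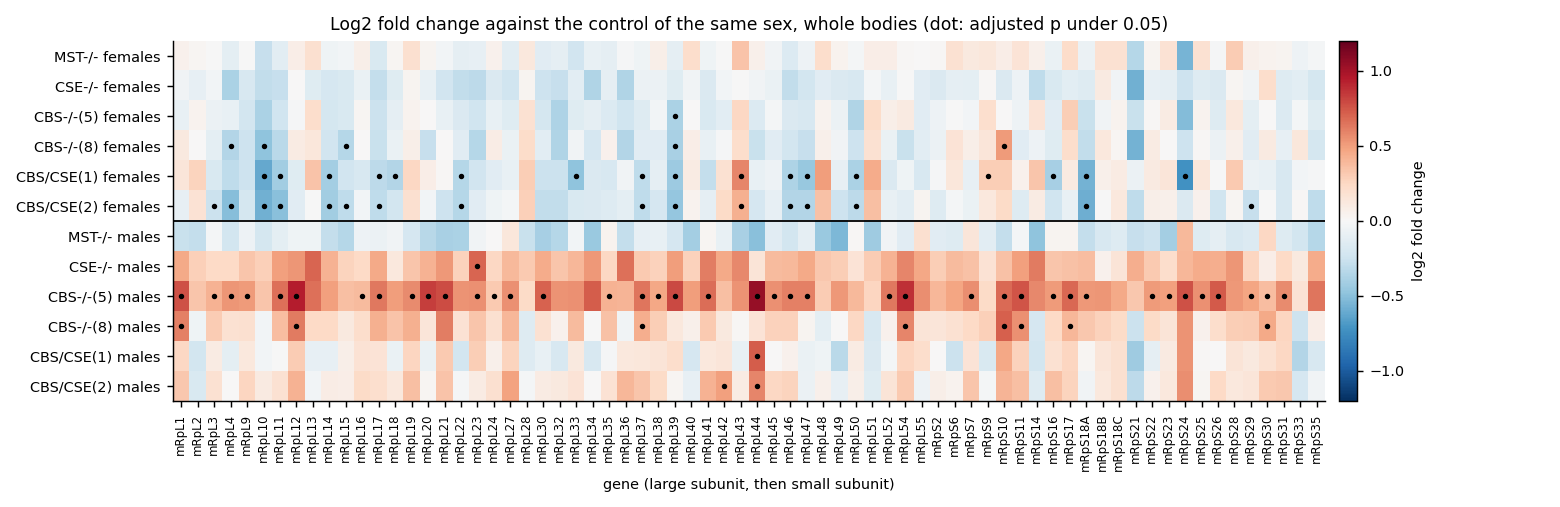
Log2 fold change of each of the 70 members (columns) in each strain against the control of its sex (rows, females then males; edgeR fit, TMM scaling, 3 libraries per group), with dots on those called at an adjusted p under 0.05. Female rows are mostly pale with 15 members called lower in each combined deletion, and the CBS-/-(5) male row is positive for all 70 genes with 40 called.

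In males the members called in any strain were higher than in the control, and none was called in MST-/-. In CBS-/-(5) males 40 of 70 members were higher and none lower (57.1%), when 32.7% of all genes were called and 14.6% were called higher. All 70 values were above 0, from 0.18 to 1.04 on the log2 scale, with a median of 0.54 against 0.03 over all genes. The calls covered 26 of 46 mRpL and 14 of 24 mRpS genes, and for 31 members the groups did not overlap (all genes 16.8% in that direction).

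The largest increase was in mRpL44 (FBgn0037330, 3R:5469463-5470636, minus strand), a mitochondria-specific protein of the large subunit with an RNase III-like fold, known in human mitochondria to lie near the tunnel exit. It had 30.89, 34.06 and 28.71 CPM in CBS-/-(5) males against 13.16, 15.54 and 16.68 in control males (1.04, SE 0.16, adjusted p = 0.000163), with all 3 libraries well above the control. The stalk gene mRpL12 had 33.92, 48.31 and 21.91 CPM against 16.18, 20.26 and 17.61 (0.95, SE 0.21, adjusted p = 0.00367), and mRpL54 had 19.63, 25.85 and 15.63 against 10.13, 10.46 and 12.61 (0.88, SE 0.21, adjusted p = 0.00503). In the last 2 genes library 2 was highest and library 3 lowest, and library 3 lay only just above the control. The gene tko had the same order of libraries with the third inside the control range, at 28.86, 43.99 and 18.32 CPM against 17.00, 18.81 and 19.95 (0.71, SE 0.24, adjusted p = 0.0308), and bonsai did not pass (0.47, adjusted p = 0.0654).

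Ovary transcripts had the same order of libraries in CBS-/-(5), and in part in CBS-/-(8) and CSE-/-. In the 3 CBS-/-(5) male libraries the 19 ovary and eggshell markers summed to 1532, 5051 and 182 CPM, and the members to 1730, 2147 and 1249 CPM. Control males had marker sums of 633, 1043 and 1492 and member sums of 1166, 1274 and 1344 CPM. By library total, the CBS-/-(5) library with the fewest ovary transcripts had a member sum inside the control range. Under the TMM scaling of the male fit its sum was 1342 CPM, just above the control libraries at 1141, 1243 and 1317. In CBS-/-(8) males marker sums of 4731, 2755 and 154 CPM went with member sums of 1413, 1564 and 1222, and in CSE-/- males 1307, 1832 and 2542 went with 1530, 1479 and 1669. The CBS-/-(8) library with the fewest markers had the lowest member sum, but the one with the most did not have the highest. The CSE-/- library with the most markers had the highest member sum, but the one with the fewest did not have the lowest. The part of ovary RNA in these sums was not tested. When the 6 male libraries of deletion strains with marker sums above every control were left out, an alternative chosen after the data were seen, 1 library each of CBS-/-(5), CBS-/-(8) and CSE-/- males remained, and it was assumed to vary like the other groups. In that fit 3 members were higher in CBS-/-(5): mRpL44 (0.95), mRpS17 (0.54) and mRpS30 (0.52), with a median of 0.14 over the 70. When the counts expected of the estimated share of female RNA were subtracted, 2 were higher, mRpL44 (1.10, SE 0.24, adjusted p = 0.00596) and mRpS11 (0.67). The share was estimated from the ovary and eggshell markers, with the females of the same strain as the profile. It was 18.1%, 59.7% and 2.15% in CBS-/-(5) male libraries 1, 2 and 3 and 4.59–10.8% in control males.

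**Figure D4:**
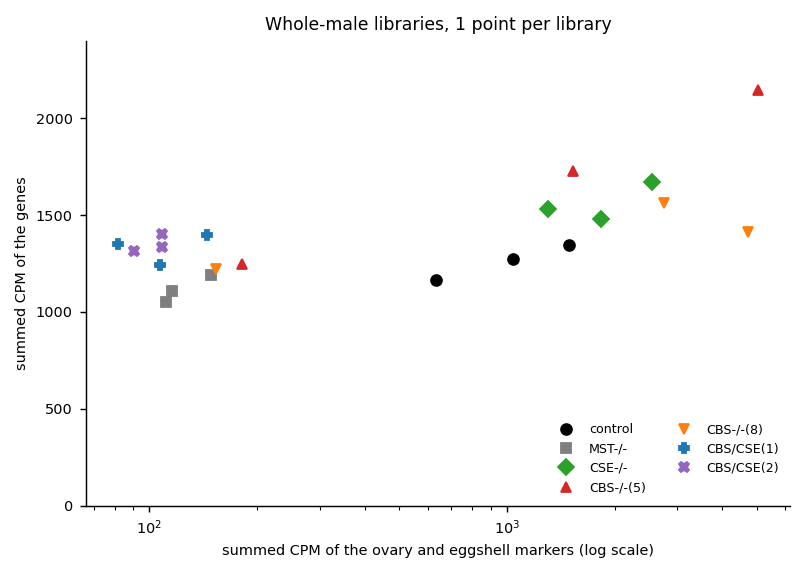
Summed CPM of the 19 ovary and eggshell markers (x axis, log scale) and summed CPM of the members (y axis) in each of the 21 whole-male libraries, 1 point per library, marked by strain. The CBS-/-(5) libraries lie at marker sums of 182, 1532 and 5051 with member sums of 1249, 1730 and 2147, and MST-/- and the combined deletions lie at marker sums of 81–149.

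Single libraries decided the CBS-/-(5) count in males as well. Members called higher were 36 without CBS-/-(5) library 1, 19 without library 2 and 70 without library 3, and 12, 17 and 25 without control library 1, 2 and 3. With a fit of only the 6 libraries compared 3 were called, and with the thorax-based scaling, which moved the median of all genes to -0.13, 15 were called. In the same comparison 7 of 13 genes for expression of the mitochondrial genome, 3 of 9 mitochondrial translation factors and 2 of 5 regulators of nuclear genes for mitochondria were higher and none lower. Of the cytosolic ribosomal proteins 68 were higher and 3 lower of 87, and of the mitochondrial aminoacyl-tRNA synthetases 6 and 4 of 14. The nuclear respiratory chain subunits had 2 higher and 11 lower of 81, mitochondrial protein import 0 and 5 of 12, and transcripts of the mitochondrial genome 0 and 1 of 15. RNaseZ, which trims the 3' ends of tRNA precursors, had 22.73, 25.7 and 23.77 CPM against 10.3, 12.35 and 10.21 (1.14, SE 0.18, adjusted p = 0.000214). Its 3 libraries were close to each other and above the control, unlike those of mRpL12.

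In CBS-/-(8) males 8 members were higher and none lower (11.4%), below the 12.8% of all genes called higher, with 32.3% called in all. The largest increases were in mRpS10, at 23.28, 20.42 and 15.77 CPM against 11.36, 11.77 and 13.08 (0.72, SE 0.18, adjusted p = 0.00688), in mRpL12, at 28.39, 33.12 and 21.69 (0.62, SE 0.21, adjusted p = 0.0309), and in mRpL1, at 26.81, 30.62 and 21.62 against 14.22, 16.70 and 21.01 (0.61, SE 0.18, adjusted p = 0.0144). In all 3 genes the third library, with a marker sum of 154 CPM against 4731 and 2755 in the other 2, was the lowest of its group. It lay above every control library, but only just for mRpL12 (21.69 against at most 20.26 CPM) and mRpL1 (21.62 against at most 21.01). Without the libraries rich in ovary markers, which left library 3 alone in the group, 1 member was called (mRpS17, 0.49) and the member median was 0.02 on the log2 scale, and after subtraction none was called. Leaving out a library gave 3, 3 and 15 (CBS-/-(8) libraries 1, 2 and 3) and 2, 3 and 5 (control libraries 1, 2 and 3).

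In CSE-/- males 1 member was higher (all genes 3.71%, higher 1.70%), and MST-/- males had none called (all genes 1.54%), with 6 at an unadjusted p under 0.05 and 0 by DESeq2. The one in CSE-/- was mRpL23, a protein at the tunnel exit, at 20.32, 17.68 and 21.31 CPM against 11.6, 11.11 and 13.88 (0.69, SE 0.18, adjusted p = 0.0379). In CSE-/- males all 70 values were above 0, with a median of 0.36 against -0.01 over all genes, and in 48 members the groups did not overlap (17.5% of all genes in that direction). A fit of only those 6 libraries called 18 members higher, and the share of all genes called in it is not given. With CSE-/- libraries 2 and 3 left out, whose marker sums were 1832 and 2542 CPM, library 1 alone stood for CSE-/- and the member median was 0.35. That library was not free of ovary transcripts, with a marker sum of 1307 CPM. Its estimated share of female RNA was 15.1%, against 4.59–10.8% in control males. In MST-/- males the median was -0.16 against -0.08.

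In the combined deletions few members changed in males. In CBS/CSE(1) 1 member was higher (all genes 12.7%, higher 5.37%), and in CBS/CSE(2) 2 were (all genes 18.0%, higher 8.24%). Both had mRpL44 higher, at 20.42, 26.96 and 27.94 CPM in CBS/CSE(1) (0.73, SE 0.16, adjusted p = 0.00364) and at 23.23, 20.42 and 24.58 CPM in CBS/CSE(2) (0.59, SE 0.16, adjusted p = 0.0154). Every one of these libraries was above the 13.16–16.68 CPM of control males, and their ovary marker sums, 81–145 CPM, were below those of the control. The second gene in CBS/CSE(2) was mRpL42, at 21.77, 21.25 and 17.21 CPM against 13.57, 13.87 and 15.21 (0.50, SE 0.17, adjusted p = 0.0481). Leaving out single libraries gave 1 call in CBS/CSE(1) and 0 or 1 in CBS/CSE(2), and without the ovary-rich libraries of the single deletions, which share the fit's estimate of the spread, 4 and 14 members were higher. The shares of all genes called in that fit are not given.

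Over the 6 male strains mRpL44 was thus higher in 3, and the others stood at 17.8, 19.86 and 13.08 CPM (CBS-/-(8), 0.16, adjusted p = 0.452), 15.57, 16.06 and 19.02 CPM (CSE-/-, 0.16, adjusted p = 0.587) and 10.6, 10.32 and 11.24 CPM (MST-/-, -0.50, adjusted p = 0.146). Tested against its parent CBS-/-(8), CBS/CSE(2) differed in mRpL44 by 0.42 on the log2 scale (SE 0.16, adjusted p = 0.0948), and all 3 of its libraries were above those of the parent. Against its parent CBS-/-(5), CBS/CSE(1) differed by -0.31 (SE 0.16, adjusted p = 0.114), and all 3 of its libraries were below those of the parent. In females mRpL44 was called in no strain. RNaseZ was higher in males of CBS-/-(5), CBS-/-(8), CBS/CSE(1) and CBS/CSE(2), by 1.14, 1.24, 0.79 and 1.22 on the log2 scale.

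**Figure D5:**
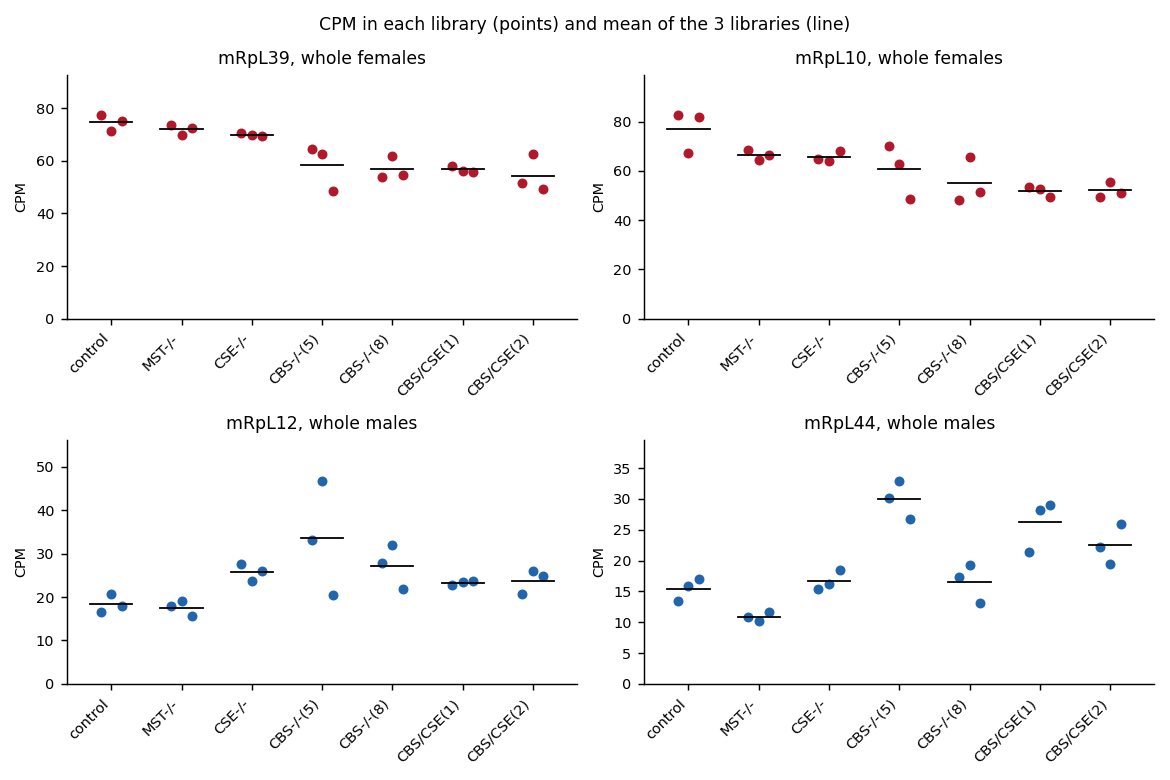
CPM in each library (points) and group mean (line) for mRpL39 and mRpL10 in whole females and for mRpL12 and mRpL44 in whole males, by strain, scaled by library total. In females mRpL39 was lower in the 4 strains that lack CBS. In males mRpL44 was higher in CBS-/-(5) and both combined deletions, whereas mRpL12 spreads widely within CBS-/-(5).

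Whether the effect of a strain differed between the sexes was tested directly as the female minus the male effect, with the 42 whole-body libraries fitted together. For CBS-/-(5) 24 members had a lower effect in females than in males and none a higher one, when 13.6% of all genes were called and 5.63% were lower. The median was -0.62 against 0.09 over all genes. The largest were mRpS24 (-1.29, SE 0.33, adjusted p = 0.0121), mRpL44 (-1.22, SE 0.25, adjusted p = 0.00243) and mRpL39 (-1.18, SE 0.27, adjusted p = 0.00487). The last was lower in CBS-/-(5) females and higher in CBS-/-(5) males. The other strains had fewer: 8 lower for CBS/CSE(2) (all genes 31.3%, lower 11.5%), led by mRpL44 (-0.85, adjusted p = 0.0117), mRpL11 (-0.74) and mRpL10 (-0.73), 3 lower for CBS-/-(8) (all genes 17.8%, lower 8.09%), namely mRpL54 (-0.90), mRpL17 (-0.74) and mRpL23 (-0.72), and 1 lower for CSE-/- (all genes 0.813%, lower 0.185%), mRpL23 (-1.0, adjusted p = 0.0456). For CBS/CSE(1) mRpS24 was lower (-1.16) and mRpL28 (0.59) and mRpS9 (0.61) were higher (all genes 21.5%, lower 2.56% and higher 19.0%). With the thorax-based scaling, which moved the median of all genes from 0.38 to -0.20 in that comparison, 4 were lower and none higher, and mRpL28 turned to -0.02. For MST-/- none was called (0.214%), with 5 at an unadjusted p under 0.05 and 0 by DESeq2. The male libraries here are those whose ovary marker sums are given above, and the part of that RNA in these differences was not tested.

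The strains lacking CBS and CSE were then set against the CBS-/- parent. In females 0 members were called for CBS/CSE(1) against CBS-/-(5) (all genes 3.72%) and 0 for CBS/CSE(2) against CBS-/-(8) (5.41%), and in males 0 for CBS/CSE(2) against CBS-/-(8) (9.10%). Unadjusted p-values under 0.05 numbered 8, 1 and 3, and DESeq2 called 0 in each. In males of CBS/CSE(1) against CBS-/-(5), however, 38 of 70 members were lower (54.3%), when 36.1% of all genes were called and 19.8% were lower, and all 70 values were below 0 with a median of -0.47 against -0.03.

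The most lowered of those called were mRpL20, at 11.15, 13.38 and 12.26 CPM against 21.51, 33.26 and 13.98 in CBS-/-(5) (-0.90, SE 0.24, adjusted p = 0.0108), mRpL49, at 15.40, 16.39 and 18.96 against 29.00, 44.86 and 17.35 (-0.85, SE 0.23, adjusted p = 0.0114), and mRpS35, at 17.63, 19.19 and 19.70 against 33.05, 48.82 and 19.21 (-0.84, SE 0.26, adjusted p = 0.0216). In these genes CBS-/-(5) library 3 lay among or just above the CBS/CSE(1) libraries and libraries 1 and 2 far above. With the ovary-rich libraries 1 and 2 of CBS-/-(5) left out, which left library 3 alone to stand for the parent, 0 members were called and the median was -0.04, and after subtraction 1 was (mRpL28, -0.53, adjusted p = 0.0323). Leaving out single libraries gave 31, 2 and 65 (CBS-/-(5) libraries 1, 2 and 3) and 2, 14 and 24 (CBS/CSE(1) libraries 1, 2 and 3).

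Thoraxes, which are mostly flight muscle, showed how the members stood in another tissue. In control males 47 of 70 members were higher in thorax than in whole body and none lower (67.1%), when 57.0% of all genes were called and 26.5% were higher, and for 57 every thorax library was above every whole body (all genes 32.5%). The median was 0.81 against -0.01 on the log2 scale. The size of this rise depended on the scaling. By library total the members summed to 1392–1521 CPM in thorax and 1166–1344 in whole body. Under the TMM scaling of the fit they summed to 1481–2642 and 988–1104 CPM. The gene mRpL27, of a protein near the peptidyl transferase centre, had 42.78, 33.98 and 86.35 CPM in thorax against 12.39, 15.21 and 10.56 in whole body (2.09, SE 0.33, adjusted p = 0.000303). The mitochondria-specific mRpL52 had 24.08, 20.95 and 50.52 against 10.55, 10.10 and 10.84 (1.59, SE 0.32, adjusted p = 0.00155), and mRpS14 had 30.71, 22.49 and 60.46 against 11.61, 12.16 and 17.89 (1.44, SE 0.45, adjusted p = 0.0182). In these 3 genes thorax library 3 was the highest and all thorax libraries were above all whole bodies. Reads in mRpS14 may be shared, since 35.76% of its exon bases overlap other genes. A single member had a value below 0, mRpL15 (-0.32, adjusted p = 0.179).

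In control females the direction was the reverse, with 22 members lower in thorax (31.4%) and 1 higher (1.43%), when 72.3% of all genes were called, 35.8% lower and 36.5% higher. The median was -0.38 against 0.10. The gene mRpL15 had 11.65, 8.124 and 15.27 CPM against 35.08, 31.63 and 36.51 in whole body (-1.56, SE 0.25, adjusted p = 0.000245), with mRpL21 (-1.52, SE 0.29, adjusted p = 0.000778) and mRpL11 (-1.50, SE 0.38, adjusted p = 0.00422) next. The one raised was mRpL28, at 49.72, 59.19 and 149.0 CPM against 46.88, 41.20 and 47.72 (0.93, SE 0.36, adjusted p = 0.0363), which library 3 decided. This gene was also higher in male thorax (1.14, SE 0.28, adjusted p = 0.00501). Nuclear respiratory chain subunits were higher in thorax in both sexes, 62 of 65 in females with none lower and 62 of 81 in males with 19 lower, while mitochondrial aminoacyl-tRNA synthetases were lower in 11 of 14 in female thorax and in 5, with 3 higher, in male thorax.

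The thorax libraries were uneven. In the third control library of each sex a far smaller share of reads fell outside genes than in the other thorax libraries. Under TMM scaling in the fits with whole bodies, the members summed to 2720 CPM in female library 3 against 1084–1106 in libraries 1 and 2. In males they summed to 2642 against 1481–1714 CPM. The part of these differences in the result was not tested. Leaving out female thorax library 3 gave 63 members lower and none higher, library 1 gave 5 lower and 3 higher, and library 2 gave 9 and 2. Leaving out whole-body library 1, 2 or 3 gave 14, 20 and 12 lower and none higher. DESeq2 called 7 lower and 2 higher. In males the count was 32 to 57 whichever library was left out, and 39 without thorax library 3.

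Deletion of CBS was compared in thoraxes as well. In CBS-/-(5) female thorax no member was called, and neither was any other gene (0.00%), with the uneven control libraries in the fit, while 69 of 70 values were below 0 and the median was -0.46 against 0.01. In male thorax no member was called (all genes 1.85%) and the median was -0.16. An unadjusted p under 0.05 was found for 0 members in females and 1 in males, mRpL10 (-0.51, adjusted p = 0.27), and DESeq2 called 0 in both. The effect of CBS-/-(5) in thorax minus that in whole body was called for 0 members in females (all genes 0.00929%) and 0 in males (0.123%), with 5 at an unadjusted p under 0.05 in males and 0 by DESeq2. In thorax mRpL44 stood at 19.21, 19.98 and 22.12 CPM in CBS-/-(5) males, with a log2 difference of 0.11 (SE 0.31, adjusted p = 0.905) from the control, and its thorax minus whole-body effect was -0.78 (SE 0.36, adjusted p = 0.402).

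Males labelled backcrossed CBS/CSE(2) were compared with CBS/CSE(2) males, with the reservation on Cbs and Cth levels above. Here 3 members were lower and none higher (all genes 19.6%, lower 11.2%), with a median of -0.25 against -0.06. They were mRpS31, at 23.29 and 19.88 CPM in libraries 1 and 2 against 36.54, 34.74 and 26.30 (-0.60, SE 0.20, adjusted p = 0.0378), mRpS29, the GTP-binding DAP3 protein (-0.54, adjusted p = 0.0457), and mRpS23 (-0.50, adjusted p = 0.0470), all of the small subunit. The third library, with 7321 counts, had 0 reads of mRpS31. No member was called without CBS/CSE(2) library 1 or 2 or backcrossed library 1 or 2, 6 without CBS/CSE(2) library 3 and 1 without backcrossed library 3. DESeq2 and a fit with no low-count filter called 0. In the same libraries RNaseZ was lower, at 9.96 and 7.205 CPM in libraries 1 and 2 against 26.81, 24.03 and 28.69 (-1.63, SE 0.22, adjusted p = 1.65e-05).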

How the data were processed

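The authors sequenced poly(A) RNA from 57 libraries of 19 groups and deposited raw read counts per gene, not normalized. The submitters' processing notes name FastQC, Trimmomatic 0.38, STAR 2.5.0a and featureCounts 1.5.0-p1 on dm6. The annotation release and the strand setting are not given in the sources used here. Symbols, coordinates and exon overlaps were looked up in Ensembl release 115.

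Fits used edgeR 4.0.16 (limma 3.58.1, R 4.3.3) on the counts: TMM scaling, filterByExpr with a count minimum of 10 and a total of 15, a quasi-likelihood F-test and Benjamini-Hochberg adjustment over all genes tested, called at an adjusted p under 0.05. Whole females (21 libraries), whole males (21), all whole bodies (42), thoraxes (12, or 6 of a sex), whole bodies and thoraxes of a sex (12) and males with the backcrossed strain (24) were fitted apart. CPM outside the fits uses the library total of counts assigned to genes. The depth of each library limits the precision of low counts, the spread between the 3 libraries of a group sets the errors, and the edgeR test was checked on simulated data for CBS-/-(5) against the control in each sex.

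The members and the other gene lists were chosen with earlier results of these data known. Named members were the 3 most raised and 3 most lowered of those called in a comparison, those called against the majority, those called the same way in at least 4 strains of a sex, the 3 highest and lowest per length in controls, those with the greatest and least difference between the sexes, and tko and bonsai. Of the other lists the 2 most raised and 2 most lowered called genes were eligible. The genes mRpL44, mRpL10 and mRpL12 were followed through further strains, and mRpL28 through thoraxes, after their values were seen.

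Alternatives were DESeq2 1.42.0, no low-count filter, the replicate number as a block, fits of only the 2 groups, TMM factors from genes whose control level in thorax matched or exceeded that in the whole body, subtraction of an estimated share of female RNA from male libraries, and leaving out each replicate. Leaving out the ovary-rich male libraries was added after the data were seen. No pair of libraries of a group (57 pairs) held identical counts.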

Additional observations from a re-analysis of the deposited data

Results flagged for a closer look

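The effect of a strain on the members differed between females and males by the test of that difference. Of the 70 members it differed in 24 for CBS-/-(5), when 13.6% of all genes were called, in 8 for CBS/CSE(2) (all genes 31.3%), in 3 for CBS-/-(8) (17.8%), in 3 for CBS/CSE(1) (21.5%) and in 1 for CSE-/- (0.813%). As shares of the members these are 34.3%, 11.4%, 4.29%, 4.29% and 1.43%, so that the share was above that of all genes for CBS-/-(5) and CSE-/- and below it for the other 3 strains. The marker sums of ovary transcripts in the male libraries of CBS-/-(5) (182 to 5051 CPM), CBS-/-(8) (154 to 4731 CPM) and CSE-/- (1307 to 2542 CPM) vary beside these counts, whereas those of CBS/CSE(1) and CBS/CSE(2) lie between 81 and 145 CPM. Their part in the differences was not tested.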

How the results depend on the processing

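The counts of members called depended on single libraries and on scaling more than on the tool. For the alternatives here and above, the shares of all genes called are not given. Their counts therefore show how the calls moved and cannot be read as particular to the members. DESeq2 called 3 in CBS-/-(5) females, 9 in CBS-/-(8) females, 13 in CBS-/-(8) males, 4 in CBS/CSE(2) males, 9 in female thorax against whole body, 0 in the backcrossed males, and for the female minus male effect 6 in CBS-/-(8) and 5 in CBS/CSE(1), there with 3 lower and 2 higher. Without the low-count filter 13 were called in CBS-/-(8) males, 0 in the backcrossed males, and for the sex difference 6 in CBS-/-(8) and 0 in CSE-/-. Fits of only the 2 groups called 2 in CSE-/- females, 0 in CBS-/-(5) females, 5 in CBS/CSE(2) females, 18 in CSE-/- males, 3 in CBS-/-(5) males, 2 in CBS/CSE(1) males and 9 in CBS/CSE(2) males. Thorax-based scaling called 43 in CBS-/-(8), 30 in CBS/CSE(1) and 68 in CBS/CSE(2) females, 0 in CSE-/-, 15 in CBS-/-(5), 3 in CBS-/-(8) and 0 in CBS/CSE(2) males, 15 in CBS/CSE(1) against CBS-/-(5) males, and for the sex difference 39 in CBS-/-(5), 40 in CBS-/-(8), 0 in CSE-/-, 4 in CBS/CSE(1) and 48 in CBS/CSE(2). In the control, where it moved the median of all genes between the sexes from -0.86 to 0.65, 70 members were higher in females.

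In males, subtraction of female RNA left 0 calls in CSE-/-, 2 in CBS-/-(5), 0 in CBS-/-(8), 1 in CBS/CSE(2) and 1 in CBS/CSE(1) against CBS-/-(5). Leaving out the ovary-rich libraries, a choice made after the data were seen that left 1 library each of CBS-/-(5), CBS-/-(8) and CSE-/-, assumed to vary like the other groups, gave 3 in CBS-/-(5), 1 in CBS-/-(8), 1 in MST-/-, 0 in CSE-/-, 4 in CBS/CSE(1), 14 in CBS/CSE(2) and 0 in CBS/CSE(1) against CBS-/-(5). Causes were not tested. The main fits did not pair samples by replicate number. Between libraries of the same number, the mean correlation of deviations from the group means was 0.012 in females, -0.035 in males and 0.195 in thoraxes. Between different numbers it was -0.007, 0.017 and -0.096. Single pairs of the same number ran from -0.613 in males to 0.768 in females, and up to 0.691 in thoraxes. Whether libraries of the same number shared a batch was not tested. With the replicate number as a block, 9 members were called for the sex difference of CBS-/-(8) and 14 for that of CBS/CSE(2), and the other counts stayed within 1.5 times.

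Leaving out 1 library at a time gave, in females, 0 to 3 calls in CBS-/-(5), 1 to 11 in CBS-/-(8), 5 to 17 in CBS/CSE(1), 8 to 20 in CBS/CSE(2) and 0 to 3 in CBS/CSE(2) against CBS-/-(8). In males it gave 0 to 1 in CSE-/-, 12 to 70 in CBS-/-(5), 2 to 15 in CBS-/-(8), 1 in each case in CBS/CSE(1), 0 to 1 in CBS/CSE(2), 2 to 65 in CBS/CSE(1) against CBS-/-(5) and 0 to 6 in the backcrossed strain. Thorax against whole body gave 8 to 63 in females and 32 to 57 in males, control females against males 65 to 66, and the sex difference 3 to 57 in CBS-/-(5), 0 to 6 in CBS-/-(8), 0 to 1 in CSE-/-, 2 to 6 in CBS/CSE(1) and 1 to 15 in CBS/CSE(2).

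Among single members, 25 of the values under the other alternatives changed sign, 308 kept it and missed the threshold, and 1089 kept both sign and call. Under thorax-based scaling mRpS10 in CBS-/-(8) females became -0.14, mRpS9 in CBS/CSE(1) females -0.26, mRpL43 in CBS/CSE(2) females -0.59 and mRpL28 for the sex difference of CBS/CSE(1) -0.021. After subtraction of female RNA the CBS-/-(5) male values of mRpL3 (-0.27), mRpL38 (-0.075), mRpS18A (-0.10), mRpS29 (-0.056) and mRpS30 (-0.10) and the CBS-/-(8) male value of mRpL12 (-0.0044) turned, as did, for CBS/CSE(1) against CBS-/-(5) males, mRpL1 (0.056), mRpL11 (0.23), mRpL12 (0.15), mRpL37 (0.13), mRpL39 (0.17), mRpL46 (0.0069), mRpL54 (0.40) and mRpS18A (0.36). Without the ovary-rich libraries the CBS-/-(5) male value of mRpS18A was -0.016, and for CBS/CSE(1) against CBS-/-(5) males mRpL12 was 0.031, mRpL14 0.090, mRpL39 0.0077, mRpL43 0.044, mRpS18A 0.075 and mRpS33 0.039. Groups of 3 libraries limit all these tests, and the library with 7321 counts could not carry a value for most members.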
